A study of Mus musculus with 2 samples.

Results

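The glycosyltransferases that build the glycans of the cell surface and of secreted mucins were examined in the whole uterus of 2 C57BL/6 mice on day 4 of pregnancy. The members were chosen by symbol alone: rows whose symbol belongs to the Galnt, B4galt, B3galt, B3gnt, Gcnt, St3gal, St6gal, St6galnac, St8sia or Fut families, together with C1galt1. The rule found 71 of the 22740 genes in the table, and no measured value entered it. By the sugar that each enzyme adds, they are 16 N-acetylgalactosamine (GalNAc), 13 galactose, 14 N-acetylglucosamine (GlcNAc), 20 sialic acid and 8 fucose transferases. Both mice belong to 1 group, titled WT1 and WT2, with no treatment or genotype contrast, and each gave 1 poly-A library. Levels are the authors' RPKM, reads scaled by transcript length and library depth. Uterus 1 is the library titled WT1 and uterus 2 that titled WT2, and paired values stand in this order. Values written with ± are the mean and SD over these 2 uteri (n = 2).

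These enzymes sit in the Golgi and work in sequence. Polypeptide GalNAc transferases start mucin-type O-glycans on serine or threonine, C1galt1 adds galactose to give core 1, and GlcNAc transferases branch or extend the chain. Galactosyl- and GlcNAc-transferases then alternate to make N-acetyllactosamine, and sialyl- and fucosyltransferases cap it, which gives the sialylated and Lewis or H antigens that lectins bind. In the mouse uterus fucosylated surface glycans of the luminal epithelium are known to change under ovarian hormones around the time of implantation, and selectin ligands need sialic acid and fucose on the same chain.

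The labelled tissue was checked first. The uterine transcription factors and receptors Pgr, Esr1, Hoxa10 and Hoxa11 lay between 72.0 and 114 RPKM on average. Epithelial markers (5 genes, 25.6 to 82.4 RPKM), stromal markers (4 genes, 137 to 1924 RPKM) and smooth muscle markers (4 genes, 152 to 622 RPKM) were all detected. Markers of oviduct and ovary, Ovgp1 and Star, were detected at low levels. The fat markers Adipoq and Plin1 and the embryo markers Pou5f1 and Cdx2 held at most 3 reads in either uterus. Reads behind each value were recovered from the RPKM values, and summed to 3772624 in uterus 1 and 4191165 in uterus 2. The libraries differed by more than counting error (chi-square of 3.48 per gene over 13387 genes, and 2.05 per gene over 60 members), so neither is a copy of the other. In such bulk tissue, fewer cells of a type and less RNA per cell cannot be told apart.

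Most of the transferases were present at moderate levels. At a threshold of 1 RPKM in both uteri, 54 of the 71 members (76.1%) were detected, where 58.4% of all genes and 61.6% of genes with a protein-coding (NM_) identifier were. At least 10 RPKM in both uteri was reached by 25 of the 71 members. That level was reached by 6924 of all 22740 genes (30.4%) and by 6753 of the 20445 with an NM_ identifier. A further 15 members lay below 1 RPKM in both uteri, and B3gnt3 and St6galnac1 crossed the threshold in uterus 2 alone. The median over members was 7.60 and 7.38 RPKM, beside 3.28 and 3.23 RPKM over all genes. No member was among the most abundant RNAs: the highest, Galnt1, ranked 1177 of 22740. The detected members held a median of 106.5 reads in uterus 1 and 128.5 in uterus 2, and at least 13 reads in each.

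**Figure D1:**
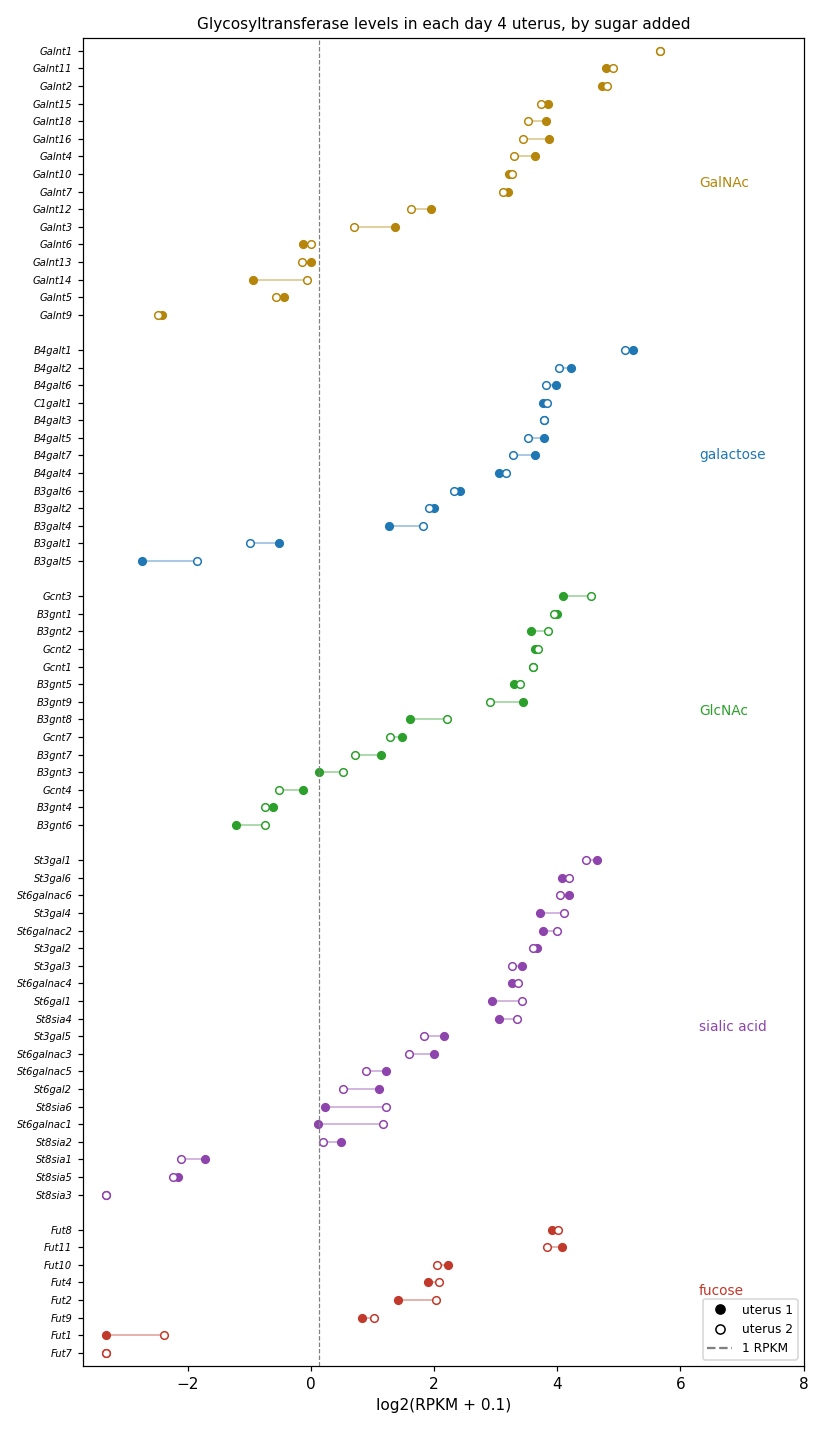
Level of each of the 71 transferases as log2(RPKM + 0.1), grouped by the sugar added and ordered by mean level. Filled points are uterus 1, open points uterus 2, and the dashed line marks 1 RPKM; in most rows the points of both uteri lie close together, with Galnt1 highest and Fut7 and St8sia3 listed at 0.

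Sequence around the transcription start was compared for members high and low in this range. RefSeq promoter windows, which run from upstream of a start to just past it, were on hand for 51 of the 71 members, below the 80% needed to describe the family as a whole, so only 4 windows are shown and no statement is made over the set. Their sequences are printed 5′ to 3′ from RefSeq and were placed on build NCBIM37 by exact match, with CpG dinucleotides in capitals, since CpG-rich starts are typical of widely expressed genes. B4galt1, the highest galactosyltransferase (chr4:40800968-40801267, minus strand), St6gal1, which differed between the uteri (chr16:23224563-23224862, plus strand), Galnt9, with 1 read per uterus (chr5:110973124-110973423, plus strand), and Fut7, listed at 0 (chr2:25278964-25279263, plus strand), read as follows.
B4galt1: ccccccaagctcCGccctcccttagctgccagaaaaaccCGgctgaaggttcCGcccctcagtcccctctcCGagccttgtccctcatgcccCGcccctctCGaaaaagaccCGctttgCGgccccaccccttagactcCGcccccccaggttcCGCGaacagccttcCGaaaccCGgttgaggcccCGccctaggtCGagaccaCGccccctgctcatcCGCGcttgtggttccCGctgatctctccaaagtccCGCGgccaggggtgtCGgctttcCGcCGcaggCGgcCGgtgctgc
St6gal1: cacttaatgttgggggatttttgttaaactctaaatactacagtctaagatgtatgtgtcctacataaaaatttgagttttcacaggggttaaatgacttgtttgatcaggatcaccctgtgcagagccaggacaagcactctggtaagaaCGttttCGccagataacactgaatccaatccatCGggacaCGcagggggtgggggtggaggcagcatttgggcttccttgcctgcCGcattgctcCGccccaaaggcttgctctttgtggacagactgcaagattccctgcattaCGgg
Galnt9: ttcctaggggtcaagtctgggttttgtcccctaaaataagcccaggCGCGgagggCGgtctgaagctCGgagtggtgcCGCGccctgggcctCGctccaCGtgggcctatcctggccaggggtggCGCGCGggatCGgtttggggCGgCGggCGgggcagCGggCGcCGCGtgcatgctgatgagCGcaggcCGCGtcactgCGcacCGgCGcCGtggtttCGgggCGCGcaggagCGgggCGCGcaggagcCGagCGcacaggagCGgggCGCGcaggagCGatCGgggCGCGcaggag
Fut7: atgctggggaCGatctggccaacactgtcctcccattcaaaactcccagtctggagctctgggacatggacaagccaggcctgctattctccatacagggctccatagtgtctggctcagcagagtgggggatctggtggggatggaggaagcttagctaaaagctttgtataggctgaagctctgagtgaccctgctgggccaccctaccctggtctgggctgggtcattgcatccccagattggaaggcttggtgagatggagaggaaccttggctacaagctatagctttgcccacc
The B4galt1 window held 26 CpGs, a count reached by 16.9% of the 32851 windows in the table. Galnt9 held 41 (reached by 3.46%), although its level was near 0, whereas St6gal1 held 7 (reached by 52.1%) and Fut7 held 1 (reached by 94.6%). The 4 windows therefore did not order by level. The GC box CCGCCC, searched on both strands, occurred 5 times in B4galt1, 3 times in Galnt9 and 1 time in St6gal1, and 35.7% of all windows hold it. TATAAA, searched likewise and held by 13.6% of windows, was in none of the 4. The start on which the window is built is the deposited start for St6gal1 and Fut7, and lies 10 bases from it for Galnt9 and 553 bases from it for B4galt1. The table lists 3 windows for St6gal1 and 2 each for Galnt9 and Fut7, of which 1 is shown, so these counts describe that window and not every start of the gene.

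The GalNAc group had the largest summed level, 183 ± 5.64 RPKM over 16 genes, with 11 detected and a median of 9.11 ± 0.0330 RPKM. Galnt1, a broadly expressed initiating enzyme, was measured at 50.8 and 50.6 RPKM, from 791 and 875 reads. Galnt11, known for acting on the Notch and LDL receptor families, lay at 27.7 and 29.8 RPKM (chromosome 5, 24728711 to 24771736 on NCBIM37). Galnt2, another broad initiator, lay at 26.3 and 27.9 RPKM (chromosome 8, 126755294 to 126869622). These 3 held 58.2% ± 3.15 of the group's summed RPKM, and the ranges of Galnt11 and Galnt2 over the uteri overlapped.

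A second tier of GalNAc transferases lay near 10 RPKM. Galnt15 (14.4 and 13.2 RPKM), Galnt16 (14.4 and 10.7 RPKM) and Galnt18 (14.0 and 11.4 RPKM) once carried Galntl symbols. Galnt4 lay at 12.3 and 9.70 RPKM, Galnt10 at 9.21 and 9.55 RPKM, and Galnt7 at 9.05 and 8.62 RPKM, and these 3 are known to prefer peptides that already carry GalNAc. The ranges of Galnt15, Galnt16 and Galnt18 over the uteri overlapped. Galnt4 lay below each of these 3 in both uteri, although its range overlapped those of Galnt16 and Galnt18, and Galnt10 and Galnt7 lay below all 4. Galnt4 lies inside Poc1b on the same strand, so reads of either could be counted for the other. Galnt12 (3.77 and 2.97 RPKM) and Galnt3 (2.48 and 1.53 RPKM), which protects FGF23 from cleavage, were low. Below 1 RPKM in both uteri were Galnt6, Galnt13, Galnt14, Galnt5 and Galnt9, with means from 0.855 down to 0.0827 RPKM. Galnt13 and Galnt9 are known mainly from the nervous system.

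Galactose transferases had the highest median of the 5 groups, 12.4 and 9.57 RPKM, and 11 of 13 were detected. B4galt1, the main N-acetyllactosamine synthase, lay at 37.3 and 34.1 RPKM (chromosome 4, 40751615 to 40801570), on 649 and 658 reads. It stood above every other galactosyltransferase in both uteri and held 25.5% ± 0.266 of the group. Its relatives B4galt2 (18.6 and 16.3 RPKM), B4galt3 (13.7 and 13.6 RPKM) and B4galt4 (8.16 and 8.89 RPKM) followed. Together the 4 genes that make β1,4-linked N-acetyllactosamine held 53.9% ± 0.419 of the group's RPKM.

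Lactosylceramide, the root of most glycosphingolipids, is made by B4galt5 (13.7 and 11.3 RPKM) and B4galt6 (15.6 and 14.0 RPKM), and this pair held 19.5% ± 0.952. B4galt7 (12.4 and 9.57 RPKM) and B3galt6 (5.28 and 4.90 RPKM) add the galactoses of the linker that joins glycosaminoglycans to protein. C1galt1, the core 1 enzyme, lay at 13.5 and 14.1 RPKM (chromosome 6, 7795224 to 7822042), and its private chaperone C1galt1c1 at 8.13 and 9.67 RPKM. Among the GalNAc transferases that act before it, Galnt1, Galnt11 and Galnt2 lay above it in both uteri. The β1,3-galactosyltransferases of chain ends were the low class, at 5.22% ± 0.717 of the group. Of these B3galt2 lay at 3.87 and 3.70 RPKM and B3galt4, a ganglioside enzyme, at 2.32 and 3.43 RPKM. B3galt1 (12 and 9 reads) and B3galt5, the enzyme of type 1 chains (1 and 4 reads), were under 1 RPKM.

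Among GlcNAc transferases, β1,3 extension held 53.7% ± 2.04 of the group's RPKM over 9 genes and β1,6 branching 46.3% ± 2.04 over 5 genes. This order turned, to 45.4% ± 1.66 and 54.6% ± 1.66, without the row named B3gnt1, described below. Gcnt3, which makes the branched core 2 and core 4 structures of mucins, was highest at 16.9 and 23.2 RPKM (chromosome 9, 69879303 to 69885895). Gcnt1, the other main core 2 enzyme, lay at 12.04 and 12.08 RPKM, and Gcnt2, which makes the I-branch of poly-N-acetyllactosamine, at 12.4 and 12.9 RPKM. Gcnt3 exceeded both in each uterus. Gcnt7 (2.70 and 2.33 RPKM) was low and Gcnt4 (0.819 and 0.599 RPKM) under the threshold.

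Among the β1,3 enzymes, B3gnt2, the main poly-N-acetyllactosamine extender, lay at 11.8 and 14.3 RPKM. B3gnt5, which starts the lacto-series glycolipids, lay at 9.69 and 10.5 RPKM, and B3gnt9 at 10.8 and 7.38 RPKM. B3gnt8 (2.93 and 4.53 RPKM), a partner of B3gnt2, and B3gnt7 (2.11 and 1.54 RPKM), an enzyme of keratan sulfate chains, were lower. B3gnt3, which extends core 1 (8 and 12 reads), was near the threshold, and B3gnt4 and B3gnt6, the core 3 enzyme, held 3 to 5 reads in each uterus. The row named B3gnt1 (15.9 and 15.2 RPKM) carries the identifier NM_175383, which RefSeq now lists as B4gat1, an enzyme that adds glucuronic acid. Without it the group's median fell from 6.13 to 3.73 RPKM, and its place here rests on the older symbol alone.

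Sialyltransferases were the largest group, and 16 of 20 were detected, with a summed level of 154 ± 4.18 RPKM. The 6 enzymes of α2,3-linked sialic acid held 53.4% ± 1.45 of it, and their sum was 82.4 RPKM in each uterus. St3gal1, which caps core 1, lay at 24.8 and 21.9 RPKM on 550 and 539 reads (chromosome 15, 66934437 to 67008444). It was the highest sialyltransferase in both uteri. St3gal6 (16.9 and 18.2 RPKM), St3gal4 (13.1 and 17.3 RPKM) and St3gal3 (10.6 and 9.49 RPKM) act on N-acetyllactosamine, the first 2 of them in selectin ligands. St3gal2 lay at 12.6 and 12.1 RPKM, and St3gal5, which makes the ganglioside GM3, at 4.37 and 3.46 RPKM.

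The α2,6 linkage to GalNAc was the second class, at 31.7% ± 0.464 of the group. St6galnac6 (18.3 and 16.5 RPKM), St6galnac2 (13.6 and 15.8 RPKM) and St6galnac4 (9.53 and 10.2 RPKM) made up most of it. St6galnac3 (3.89 and 2.90 RPKM) and St6galnac5 (2.22 and 1.76 RPKM) were lower, as was St6galnac1, the enzyme of the sialyl-Tn antigen, at 0.981 and 2.16 RPKM. Sialic acid linked α2,6 to galactose held 7.01% ± 0.893, mostly from St6gal1 (7.60 and 10.7 RPKM, chromosome 16, 23224813 to 23360423) rather than St6gal2 (2.06 and 1.34 RPKM). St6gal1 exceeded St6gal2 in both uteri.

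The α2,8 class held 7.91% ± 1.02. St8sia4, a polysialic acid synthase, lay at 8.18 and 10.1 RPKM on 178 and 243 reads. The other polysialic acid enzyme, St8sia2, lay at 1.31 and 1.05 RPKM, below St8sia4 in both uteri. St8sia6, which acts on O-glycans, lay at 1.07 and 2.23 RPKM. St8sia1, the GD3 synthase, held 7 and 5 reads, St8sia5 held 1 read in each uterus, and St8sia3 was listed at 0 in both.

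Fucosyltransferases were the lowest group in sum, 44.3 ± 0.0746 RPKM, with 6 of 8 detected. Fut8, which adds the core fucose of N-glycans, lay at 15.1 and 16.1 RPKM (chromosome 12, 78489851 to 78576983). Fut11 lay at 16.8 and 14.1 RPKM (chromosome 14, 21514190 to 21519419) and Fut10 at 4.59 and 4.03 RPKM, and the acceptors of this pair are less settled. Fut8 and Fut11 changed order from one uterus to the other, so neither can be called the higher.

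The enzymes that put fucose on chain ends were lower than Fut8. Fut2, which makes the H antigen of mucosal epithelia, lay at 2.56 and 3.99 RPKM on 30 and 52 reads (chromosome 7, 52903961 to 52921764). Fut1, the other α1,2 enzyme, was listed at 0 in uterus 1 and held 1 read in uterus 2, so the 7.49% ± 2.42 of the α1,2 class rested on Fut2. Fut4 lay at 3.63 and 4.10 RPKM and Fut9 at 1.67 and 1.94 RPKM on 77 and 99 reads, both of them enzymes of the Lewis x structure. Fut7, the leukocyte enzyme that completes sialyl Lewis x, was listed at 0 in both uteri. The ribosomal protein gene Rpl26 was also listed at 0 in both, although cells in general use it, so a listed 0 is not read as absence.

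**Figure D2:**
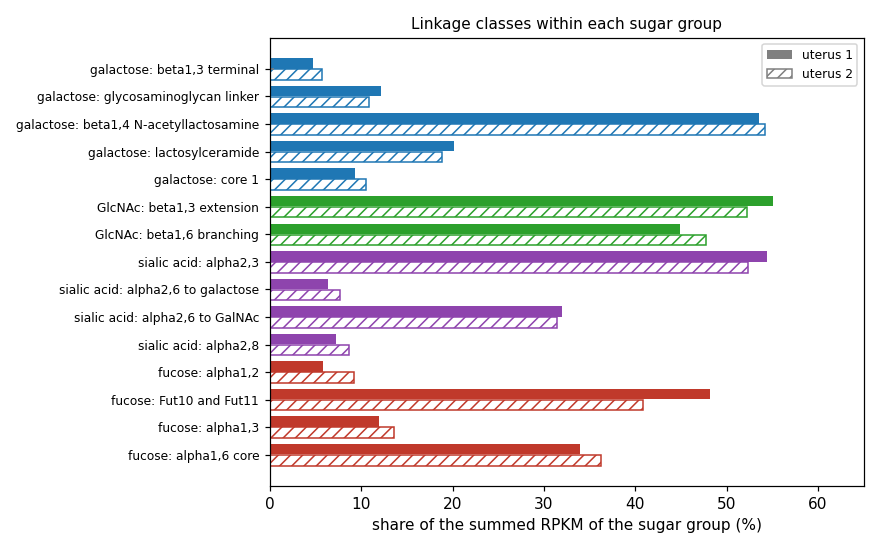
Share of each linkage class in the summed RPKM of its sugar group, for uterus 1 (solid) and uterus 2 (hatched); the GalNAc group has 1 class and is not drawn. In both uteri the β1,4 N-acetyllactosamine and α2,3 sialic acid classes hold 52.4% to 54.4% of their groups, and Fut10 with Fut11 holds 48.2% and 40.9% beside 34.0% and 36.3% for core fucose.

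In 5 pairs, members lie within 250 kb of each other, whether or not other genes lie between them, and 2 of these pairs were far apart in level. Fut1 and Fut2 are 27.5 kb apart on chromosome 7, with means of 0.0455 and 3.28 RPKM. St6galnac1 and St6galnac2 are 70.4 kb apart on chromosome 11, at 1.57 and 14.7 RPKM. St6galnac4 and St6galnac6, 7.3 kb apart on chromosome 2, lay closer, at 9.88 and 17.4 RPKM, as did St6galnac3 and St6galnac5, 220.3 kb apart on chromosome 3, at 3.40 and 1.99 RPKM. B4galt2 (17.5 RPKM) and St3gal3 (10.1 RPKM) are 48.7 kb apart on chromosome 4.

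Some levels could include reads of another gene. The use of strand is not given in the sources used here, and 10 members overlap another listed gene, 9 of them on the opposite strand: Galnt7, B3gnt9, Gcnt7, B3gnt4, B3galt2, St3gal4, St3gal5, St8sia1 and St8sia3. Of the 70 members with an annotated transcript on NCBIM37, 9 shared at least 5% of their 50-base windows with a transcript of another annotated gene. For B3gnt2, 79.9% were shared with Commd1 (37.6 and 43.4 RPKM), for B3gnt4 89.6% with Diablo, for St3gal6 38.1% with Dcbld2 and for B4galt2 32.7% with Ccdc24. Fut2 shared 5.48% with its relative Sec1, listed at 0 and 0.190 RPKM. Galnt2 shared 93.7% with the gene model Gm20388, St6galnac1 39.2% with Gm11735 and St8sia5 17.2% with Gm7276, none of which is a row of the table, and St6galnac2 shared 12.5% with 1810032O08Rik. These percentages count shared sequence and not reads, so how far the values of these members are affected is not known.

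The second question was how far the 2 libraries differed. Each animal gave 1 library, so differences between animals and between library preparations cannot be told apart. Among 56 members with a mean of at least 1 RPKM, 25 had the higher value in uterus 2 and 31 in uterus 1, and the median log2 ratio of uterus 2 over uterus 1 was -0.06, beside 0.00067 over all such genes (pseudocount of 0.1 RPKM, which understates the change of low genes). Only St6galnac1 was at least 2-fold apart on that scale, 1 of 56 members, where 2.60% of 13647 genes were (1.18% with uterus 2 the higher, 1.42% with uterus 1). A two-sided exact binomial test of the recovered reads, with Benjamini-Hochberg adjustment over all 15112 genes with at least 6 reads, called 2 of 65 members different at an adjusted p under 0.05, where it called 4.67% of all genes (2.14% with uterus 2 the higher, 2.53% with uterus 1). Before adjustment 10 members (15.4%) had a p under 0.05, 6 of them higher in uterus 2, and the share over all genes was also 15.4%. By that unadjusted count the members stood at the background share. The test compares 2 libraries of 1 group, not conditions.

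Gcnt3 and St6gal1 were the 2 members called, both higher in uterus 2. Gcnt3 held 279 and 424 reads, 1.37-fold higher in uterus 2 (95% exact interval 1.17 to 1.60, exact binomial test, adjusted p 0.0023). St6gal1 held 141 and 220 reads, 1.41-fold higher (1.13 to 1.75, exact binomial test, adjusted p 0.0372). The St6gal1 reads are the smallest possible, without a matching annotated length, so its interval and adjusted p depend on that choice. The intervals of both genes cover counting error only. Gcnt3 branches mucin O-glycans and St6gal1 places α2,6 sialic acid on N-glycan ends, and no partner enzyme of the same linkage moved with either past the test: Gcnt1 was 1.00-fold (0.833 to 1.21) and St6gal2 0.651-fold (0.293 to 1.41).

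Other members pointed the same way or the opposite way without passing the adjusted test. St6galnac1 was 2.20-fold higher in uterus 2 (0.975 to 5.43), on 9 and 22 reads, with an adjusted p of 0.316 in the exact test. St8sia6 was 2.08-fold (1.05 to 4.34, adjusted p 0.255, exact test), Fut2 1.56-fold (0.978 to 2.54, adjusted p 0.352, exact test) and St3gal4 1.32-fold (1.02 to 1.71, adjusted p 0.276, exact test). On the other side, Galnt16 was 0.743-fold (0.606 to 0.910, adjusted p 0.0661, exact test) and B3gnt9 0.684-fold (0.504 to 0.926, adjusted p 0.144, exact test). St8sia4 (1.23-fold), St3gal1 (0.883-fold) and Galnt4 (0.789-fold) had a p under 0.05 only before adjustment, as did the members just named other than Fut2. At these depths such differences could not be told from counting error after adjustment. The deepest members bounded the difference most closely: Galnt1 was 0.997-fold (0.904 to 1.099) and B4galt1 0.913-fold (0.818 to 1.02).

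**Figure D3:**
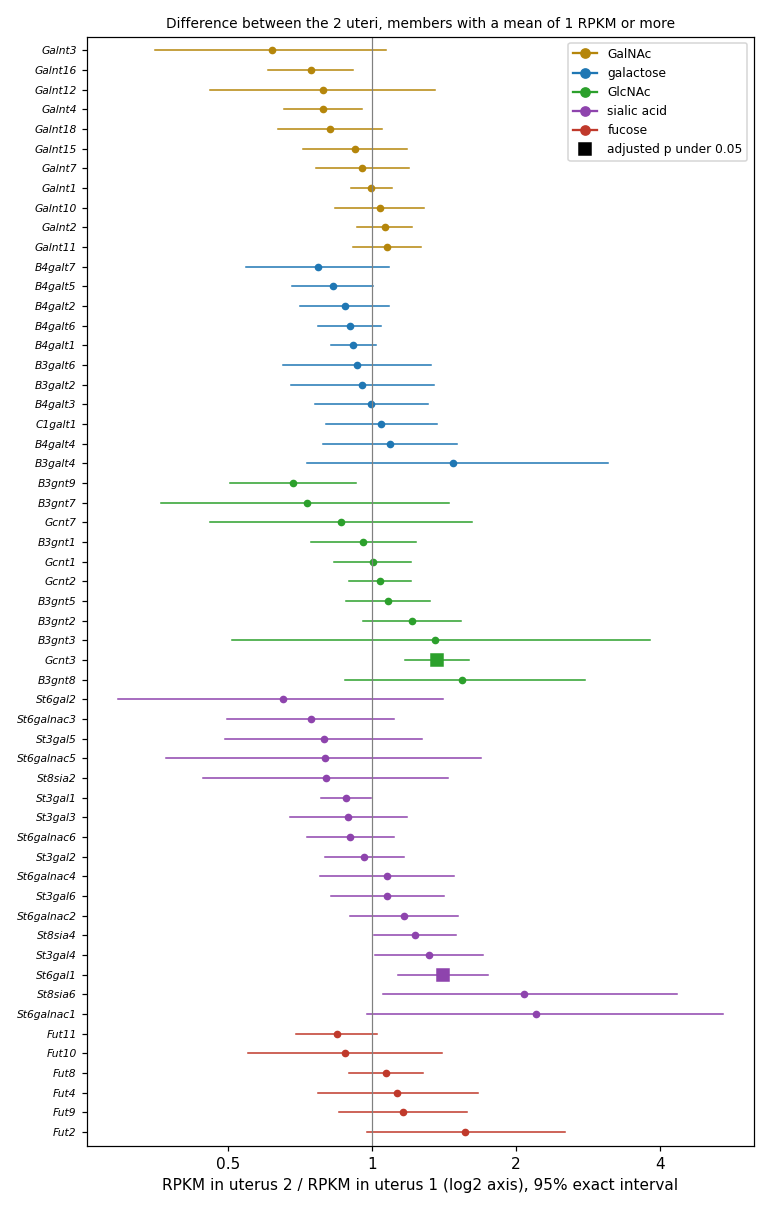
Ratio of RPKM in uterus 2 to RPKM in uterus 1 for the 56 members with a mean of at least 1 RPKM, on a log2 axis, with 95% exact intervals from the recovered reads (counting error only). Squares mark Gcnt3 and St6gal1, whose adjusted p was under 0.05; low members such as St6galnac1 have wide intervals.

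Single markers of several cell types also differed between these libraries, in both directions. The summed RPKM of the 5 epithelial markers was 243.7 in uterus 1 and 279.1 in uterus 2, and Krt18 alone of them passed (70.4 and 94.3 RPKM, exact binomial test, adjusted p 0.00077). Krt8 and Epcam were likewise the higher in uterus 2 without passing, while Krt19 (51.1 and 47.9 RPKM) and Cdh1 (26.4 and 24.9 RPKM) were the lower there. The 4 gland markers Foxa2, Prss28, Prss29 and Spink3 summed to 53.6 and 83.0 RPKM. All 4 were higher in uterus 2 and none passed the test. Spink3 held 86.5% and 86.6% of that sum (46.35 and 71.82 RPKM, exact binomial test, adjusted p 0.0525). Igj, the immunoglobulin J chain of plasma cells, lay at 53.2 and 229.7 RPKM (exact binomial test, adjusted p 3.35e-214), whereas Sdc1 lay at 32.5 and 36.1 RPKM. The stromal markers summed to 3681 and 3509 RPKM, with Col1a1 lower (1184 and 850.7 RPKM) and Dcn higher (456.4 and 577.9 RPKM) in uterus 2. The smooth muscle markers summed to 1328 and 1318 RPKM, with Myh11 higher (313.7 and 350.1 RPKM) and Acta2 lower (652.6 and 591.9 RPKM) in uterus 2, both past the test. Kdr of endothelium (22.9 and 16.6 RPKM) and the progesterone receptor gene Pgr (77.5 and 66.4 RPKM) were lower in uterus 2 and passed as well. The 4 leukocyte markers summed to 42.2 and 45.9 RPKM. Of the oviduct and ovary markers, Ovgp1 lay at 5.78 and 9.30 RPKM and Star at 2.93 and 3.87 RPKM, neither past the test (adjusted p 0.0826 and 0.558, exact binomial test). The part of any of these in the higher Gcnt3 and St6gal1 of uterus 2 was not tested.

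Every gene of the 3 sugar-donor lists was detected. The 5 genes of the GDP-fucose list had a median of 8.35 ± 0.264 RPKM, and Tsta3 (16.9 and 18.4 RPKM) and Gmds (15.4 and 14.2 RPKM), the enzymes of the main route, were highest. The 5 genes of the CMP-sialic acid list had a median of 15.9 ± 3.40 RPKM. The Golgi transporter Slc35a1 (17.3 and 24.0 RPKM) and the synthase Nans (17.5 and 20.4 RPKM) led it, and Gne, which starts the route, lay at 5.82 and 5.49 RPKM. The 14 genes of the UDP-sugar list were led by Ugp2 (50.62 and 65.05 RPKM) and Galk1 (27.7 and 27.9 RPKM). Of these 24 donor genes, Ugp2 and Galk2 differed between the libraries (exact binomial test, adjusted p 0.000196 and 0.0381), both higher in uterus 2, beside the 4.67% called over all genes.

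Enzymes that share acceptors with the members ranged more widely. Of the 7 N-glycan branching genes 6 were detected, with Mgat2 highest (29.7 and 29.9 RPKM). Mgat1 (23.0 and 18.4 RPKM) and Mgat4b (22.1 and 18.6 RPKM) followed and changed order between the uteri. Among 17 related transferases outside the symbol rule 11 were detected, led by A4galt, which makes the glycolipid globotriaosylceramide (49.5 and 52.1 RPKM), and Pofut2 (34.1 and 35.6 RPKM), and Galntl5 was listed at 0. Of 10 glycosidases that remove these sugars 8 were detected. Hexa led them (47.1 and 52.0 RPKM), and Neu4 was listed at 0.

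Sulfotransferases of glycans were mostly low. Of 8 glycan sulfotransferases 3 were detected, with Chst2 highest at 8.48 and 7.53 RPKM followed by Gal3st4 (1.57 and 1.63 RPKM) and Chst7 (2.02 and 1.18 RPKM), which changed order between the uteri, while Gal3st2 was listed at 0. In the list of selectins and their scaffolds 5 of 8 genes were detected, with a median of 3.42 ± 0.498 RPKM. Cd34 (149.8 and 162.6 RPKM) and Podxl (21.5 and 21.8 RPKM) led and Madcam1 was listed at 0. Cd34 and Podxl are also genes of endothelium, whose markers Pecam1, Cdh5 and Kdr lay between 19.8 and 50.8 RPKM.

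**Figure D4:**
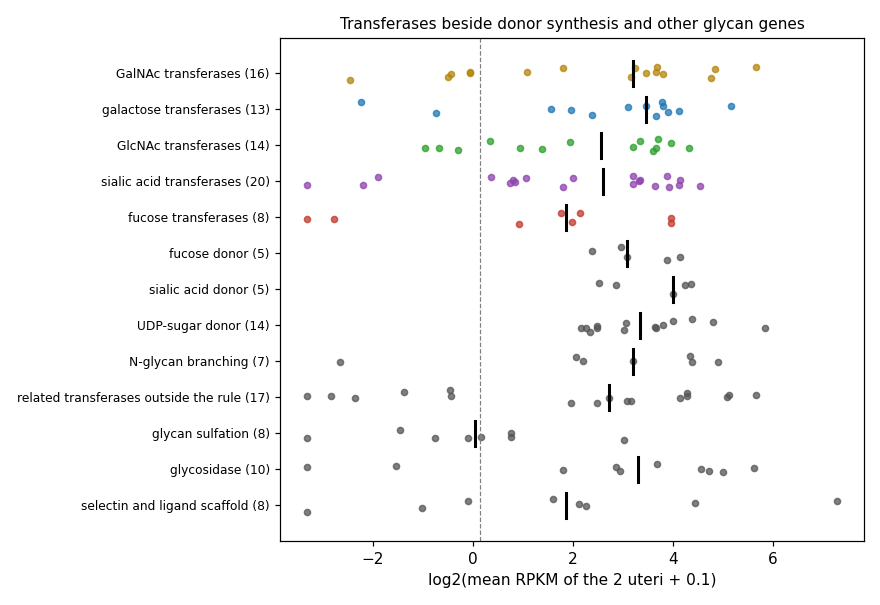
Mean level of each gene as log2(mean RPKM + 0.1) for the 5 groups of transferases (coloured) and for 8 lists of donor, processing and ligand genes (grey), with the number of genes in brackets. Black bars are medians and the dashed line marks 1 RPKM; every donor gene lies to its right, while most sulfotransferases lie near or to its left.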

How the data were processed

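Whole uteri of 2 pregnant mice (day 4) each gave 1 RNA-seq library, made with the TruSeq kit, per the labels. The authors deposited 2 tables of RPKM values, per the labels; their 22740 shared genes are identical, and the main table was used. The submitters' processing notes name TopHat, edgeR and mm9, without versions or roles. The counting program and use of strand are not given in the sources used here. Coordinates are those deposited, on mm9 (NCBIM37), with starts moved by 1 base to count from 1.

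Reads were recovered from the RPKM values. The commonest ratio between libraries (1 read in each) and genes whose span is their length gave scaling totals of 3834174 and 4256101. For all 17426 genes above 0, the smallest reads giving a whole transcript length (within 0.0001 bases) were found, then multiplied (by up to 50) where that brought the length within 3% of an annotated one. This held for 44 members; for 25 the reads are the smallest possible. The procedure was also run on simulated data, but no outcome is given here, so its accuracy on these libraries is not known. Detection was 1 RPKM in both libraries. With 1 group no test between conditions exists; reads were compared between libraries by the exact binomial test with Benjamini-Hochberg adjustment over all genes (Python 3.11.15, scipy 1.17.1). These p-values set the libraries against counting error only; reads are not independent molecules.

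Members and lists were chosen with earlier results of these data known. Named were members averaging 10 RPKM or more, the 3 highest of each sugar group, those 2-fold apart or called, those listed at 0, and the 2 highest and the listed zeros of each other list; the remaining members are given by value or range. Some genes of these lists are not reported here. Beyond that rule, the other ratios given and some list genes were chosen after their values were seen. Galntl1, Galntl2 and Galntl4 of a list are older symbols of Galnt16, Galnt15 and Galnt18. Alternatives were other thresholds, pseudocounts, filters and read counts, the TPM scale, each library alone, and leaving out members.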

Additional observations from a re-analysis of the deposited data

How the results depend on the processing

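Of 83 values under alternatives, 54 stayed within the spread between uteri or within 1.5 times of a count, and 29 moved. With 2 libraries, a mean moves by less than its SD when either is left out, so those cases say nothing about stability. The count of detected members stayed within 1.5 times under every alternative run, from 47 at 2 RPKM to 62 on the TPM scale, and was 47 of 61 over members that overlap no other listed gene (chosen after seeing the data). The TPM scale changes the unit and raised the group medians to 21.55 (GalNAc), 26.02 (galactose), 14.51 (GlcNAc), 14.74 (sialic acid) and 8.405 (fucose). Keeping members with a mean of at least 1 RPKM raised all 5 medians by construction, to 12.35 (GalNAc), 12.43 (galactose), 10.62 (GlcNAc), 9.117 (sialic acid) and 4.089 (fucose), and leaving out B3gnt1 lowered GlcNAc to 3.73.

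Without the highest member of each group, class shares moved by construction. Galactose gave 7.0% for β1,3 ends, 15.4% for the glycosaminoglycan linker, 38.1% for β1,4 N-acetyllactosamine, 26.2% for lactosylceramide and 13.3% for core 1. GlcNAc gave 66.5% for β1,3 and 33.5% for β1,6. Without B3gnt1 (added after seeing the data) it gave 45.4% and 54.6%, which turns their order. Sialic acid gave 45.1% for α2,3, 8.26% for α2,6 to galactose, 37.4% for α2,6 to GalNAc and 9.31% for α2,8. Fucose gave 11.6% for α1,2, 68.6% for Fut10 and Fut11 and 19.8% for α1,3, and no value for the core class, which is Fut8 alone.

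The count of members at least 2-fold apart was 2 of 56 with a pseudocount of 0.01 RPKM (2.84% of all genes), 0 of 56 with 1 RPKM (1.12%), 0 of 29 at a mean of 10 RPKM (0.657%) and 2 of 63 on the TPM scale (4.93%), against 1 of 56 (2.60%). With no filter on level it was 1 of 71, where 8.12% of all genes were 2-fold apart. The exact binomial test called 2 members under each alternative run, where it called 3.90% of all genes with the smallest possible reads, 5.43% at 20 reads or more and 4.65% with the share from the median ratio, with adjusted p from 0.00204 to 0.00254 for Gcnt3 and from 0.0333 to 0.0419 for St6gal1. No paired analysis was possible because 1 group holds both libraries. Depth limits the comparison of members under about 1 RPKM, several of which rest on 1 to 5 reads.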
